A study of Homo sapiens with 9 samples.

Results

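The 6 genes that encode the subunits of protein kinase A (PKA) were followed in HCT116 cells, an established human colorectal carcinoma line, after transfection of siRNAs aimed at the long non-coding RNA SNHG5. They are the catalytic subunits PRKACA and PRKACB and the regulatory subunits PRKAR1A, PRKAR1B, PRKAR2A and PRKAR2B. The family was chosen by a measured value, since PRKACA stood more than 3-fold below control with siRNA A. All 6 genes were among the 15354 rows of the table, and all 6 were among the 13893 genes that passed the filter on low values. Cells were transfected with 25 nM of a commercial non-targeting control siRNA, of siRNA A or of siRNA B, and RNA was taken after 36 h. Each group held 3 replicate libraries, 9 in all, which the study's methods describe as biological replicates. The sources used here do not state which of the study's 2 siRNA names is A and which is B. All 9 libraries come from 1 cell line, so they hold no spread between donors, and in bulk RNA fewer expressing cells and less RNA per cell cannot be told apart.

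PKA is the main intracellular receptor of the second messenger cyclic AMP (cAMP). In the resting enzyme a dimer of regulatory subunits holds a pair of catalytic subunits inactive. When cAMP binds the regulatory subunits, the catalytic subunits are released and phosphorylate serine and threonine residues, among them one in the transcription factor CREB. Type I regulatory subunits (PRKAR1A and PRKAR1B) are found largely in the cytosol, while type II subunits (PRKAR2A and PRKAR2B) are mostly tethered by A-kinase anchoring proteins. In colorectal epithelium cAMP signalling is known for its part in fluid secretion and in the response to prostaglandins.

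The types differ in the short stretch that lies in the active site of the catalytic subunit. The coding sequence of this stretch is shown for the 4 regulatory subunits because it sets apart the isoforms whose levels are given below. Each was read on the coding strand of GRCh37 from the GENCODE transcript of the gene, and capitals mark the codon at the position that a substrate would have phosphorylated:
PRKAR1A: cgacgaggtGCTatcagcgctgag
PRKAR1B: cggcgaggaGGCgtgagtgccgag
PRKAR2A: agacgagtaTCAgtctgtgctgag
PRKAR2B: aggcgtgccTCAgtatgtgcagaa
The codon reads alanine at residue 99 of 381 in PRKAR1A and glycine at residue 99 of 381 in PRKAR1B, neither of which can take up phosphate. It reads serine at residue 99 of 404 in PRKAR2A and at residue 114 of 418 in PRKAR2B. The stretch lies within 1 exon in PRKAR1A (chr17:66519005-66519028, plus strand) and in PRKAR1B (chr7:720232-720255, minus strand). In the type II genes it spans an intron, from 48831472 to 48845094 on chromosome 3, minus strand, for PRKAR2A and from 106710749 to 106762407 on chromosome 7, plus strand, for PRKAR2B.

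Levels were deposited as CPM, the reads of a gene scaled to a common library total, and libraries held from 15566530 to 23277549 reads. For comparisons between groups each library was also divided by a TMM factor (from a trimmed mean of log ratios), which ran from 1.10 to 1.19 in control, from 0.850 to 0.914 with siRNA A and from 0.948 to 1.04 with siRNA B. Over all tested genes the median log2 fold change was -0.02 with siRNA A and 0.0043 with siRNA B after TMM scaling, and -0.34 and -0.18 with library totals alone. SNHG5, the targeted RNA, was at 35.6, 26.3 and 28.6 CPM in control. The siRNA A label goes with 63.9, 50.0 and 61.5 CPM and the siRNA B label with 47.8, 47.7 and 45.2 CPM. Every library labelled as SNHG5 siRNA was thus above every control library for the RNA it should lack, against its label, so each direction below is between libraries as labelled. The epithelial markers EPCAM, CDH1, KRT8, KRT18 and KRT19 were present in all 9 libraries. EPCAM stood at 186 to 214 CPM in control and was lower with siRNA A, at 94.6 to 116 CPM, while CDH1 overlapped, at 37.3 to 48.1 and 30.04 to 38.5 CPM. The keratins were higher with siRNA A, KRT8 at 884 to 916 CPM in control and 1279 to 1601 CPM with siRNA A, KRT18 at 395 to 445 and 613 to 683 CPM, and KRT19 at 514 to 531 and 728 to 1004 CPM. With siRNA B, EPCAM at 155 to 172 CPM and CDH1 at 28.2 to 32.1 CPM lay below all control libraries. KRT8 at 1135 to 1199 CPM and KRT19 at 544 to 625 CPM lay above them, while KRT18 overlapped at 410 to 460 CPM. After TMM scaling EPCAM with siRNA B, at 161 to 166, lay inside the control range of 156 to 194. KRT18 with siRNA B, at 432 to 446, then lay above control, at 351 to 391. Of 7 markers of other cell types, PTPRC, CD3E, PECAM1 and COL1A2 had no row in the table used here and COL3A1 held 0 to 3 reads. CD68 stood at 0.579 to 1.18 CPM. COL1A1 stood at 18.3 to 19.5 CPM in control, at 9.44 to 12.3 CPM with siRNA A and at 8.55 to 9.40 CPM with siRNA B, and its part in the results below was not tested.

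Of the 6 subunits, PRKACA was the single member far below control with siRNA A, while it stayed close to control with siRNA B. PRKACB was higher than control with siRNA B in every library. PRKAR1A passed the test with siRNA B, but its libraries overlapped with control. Both calls were lost with library totals alone. PRKAR1B was lower than control with siRNA A by a smaller amount, and PRKAR2A overlapped with control on the TMM scale with both siRNAs. PRKAR2B did so with siRNA A, while with siRNA B all its libraries lay below control without passing the test. With siRNA A, 51.4% of all tested genes passed an adjusted p of 0.05 in limma's fit across all genes, 23.9% higher and 27.6% lower. Because that comparison chose the family, no count and no p is given for the subunits in it. With siRNA B, 2 of 6 passed, both higher, where 34% of all tested genes did, 15.6% higher and 18.3% lower. The median log2 fold change over the 6 was -0.03 with siRNA A and 0.11 with siRNA B. Both comparisons use the same 3 control libraries.

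**Figure D1:**
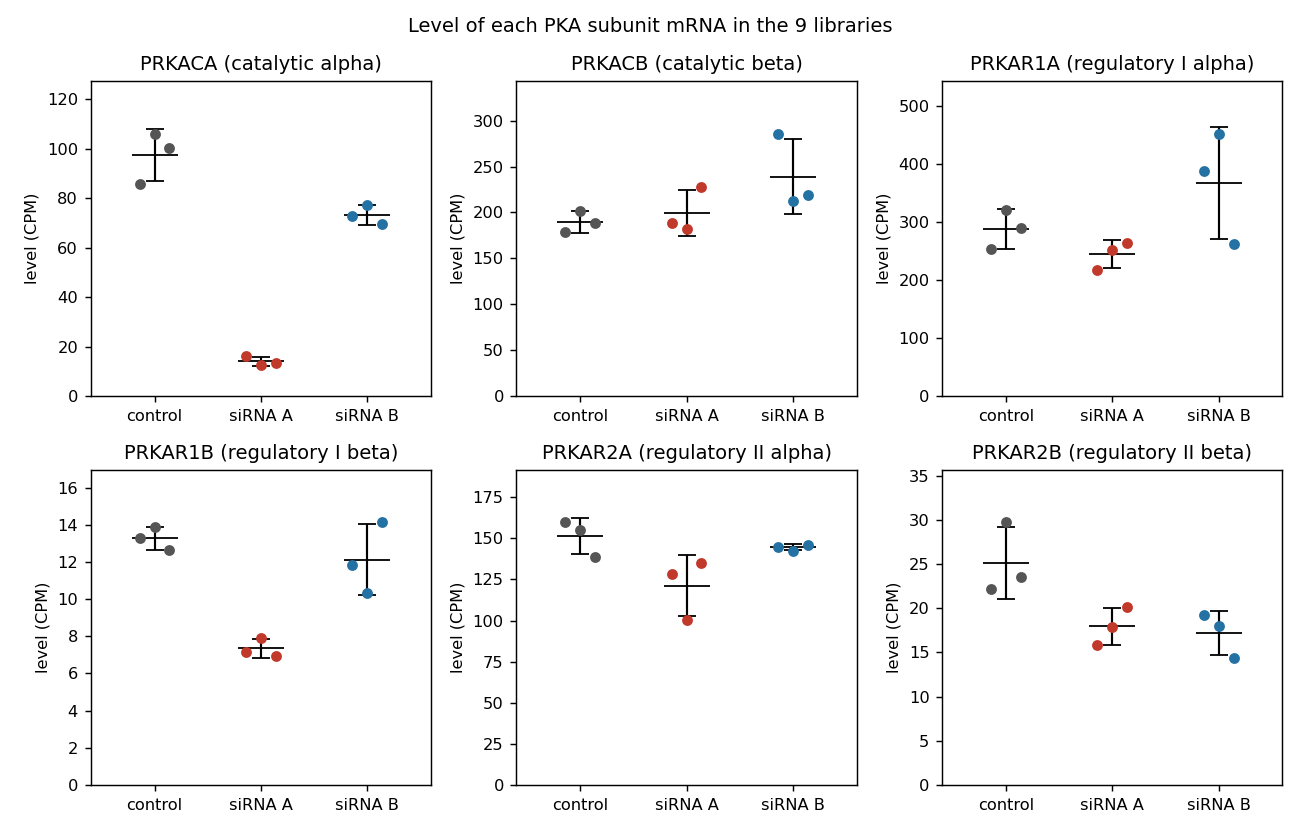
Level of each PKA subunit mRNA in CPM (vertical axes, linear from 0) in control, siRNA A and siRNA B libraries. Each point is 1 library, and the horizontal line and bar are the mean and SD of 3. The 3 siRNA A points of PRKACA sit between 12.7 and 16.2 CPM, below all other libraries, while the siRNA B points of PRKAR1A spread from 262 to 453 CPM.

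PRKACA encodes the catalytic alpha subunit, the most widely expressed catalytic isoform in most tissues. It spans 14202500 to 14228896 of chromosome 19 of GRCh37 (minus strand). In control libraries it stood at 85.7, 106 and 100.3 CPM. Libraries with the siRNA A label had 16.2, 12.7 and 13.2 CPM, which rests on 341, 198 and 270 reads. Those with the siRNA B label had 73.0, 77.2 and 69.5 CPM. The siRNA A libraries were the lowest by a wide gap and did not overlap with either other group. After TMM scaling the control mean was 85.1 ± 8.49, the siRNA A mean 15.9 ± 1.99 and the siRNA B mean 74.3 ± 6.23 (SD, n = 3). The log2 fold change of CPM + 1 was -2.35 with siRNA A (SE 0.12), 5.11-fold lower, and this value is the one that chose the family. A decrease of over 3-fold was seen in 129 genes with siRNA A, 0.929% of those tested, and in 63 genes with siRNA B, 0.453%. The next subunit in size of decrease, PRKAR1B, was 1.36-fold lower with siRNA A, so PRKACA was the only subunit past that threshold.

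With siRNA B the log2 fold change of PRKACA was -0.19 (SE 0.12, adjusted p = 0.239 by limma). The siRNA B libraries lay below all control libraries in CPM but overlapped with them after TMM scaling. With library totals alone the decrease was 0.40 on the log2 scale and passed the threshold (adjusted p = 0.0238 by limma), so whether PRKACA is called lower with siRNA B depends on the scaling. The distance between the siRNA A and siRNA B libraries was -2.16 on the log2 scale (SE 0.12), which holds the libraries that chose the family and is given without a test. Exons of SMIM46 overlap PRKACA on the same strand, and 2.52% of the 50-base stretches of PRKACA transcripts also occur in other genes, 224 in number, so a small part of its reads could be assigned elsewhere.

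PRKACB encodes the catalytic beta subunit, which can stand in for the alpha subunit in the same complexes. It spans 84543745 to 84704181 of chromosome 1 (plus strand), and no other gene shares its exons. It stood at 179, 202 and 188 CPM in control, at 188, 182 and 228 CPM with siRNA A and at 286, 213 and 219 CPM with siRNA B. Every siRNA B library lay above every control library, the first by the widest margin, while siRNA A libraries overlapped with control in CPM. After TMM scaling the control mean was 166 ± 7.37, the siRNA A mean 225 ± 21.2 and the siRNA B mean 241 ± 30.3 (SD, n = 3), and neither siRNA group overlapped with control. PRKACB rose with siRNA B by a log2 fold change of 0.53 (SE 0.11, adjusted p = 0.00366 by limma), in 3 of 3 libraries. Library totals alone took that call away, at a log2 fold change of 0.32 (adjusted p = 0.0766 by limma). With siRNA A the log2 fold change was 0.43 (SE 0.11) after TMM scaling, 0.067 with library totals alone and 0.29 after a correction for GC content. The GC content of PRKACB is 37.87%, below the median of 48.06% over all rows, while that of PRKACA is 54.53%.

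PRKAR1A encodes the type I alpha regulatory subunit, the regulatory isoform whose loss of function causes Carney complex. It spans 66507921 to 66547460 of chromosome 17 (plus strand). It stood at 254, 322 and 291 CPM in control and at 218, 253 and 264 CPM with siRNA A. With siRNA B it stood at 389, 453 and 262 CPM. The first and second siRNA B libraries were above all others, and the third lay inside the control range. The control mean after TMM scaling was 252 ± 25.5, that of siRNA A 276 ± 29.1 and that of siRNA B 374 ± 105 (SD, n = 3). PRKAR1A passed the test with siRNA B at a log2 fold change of 0.53 (SE 0.18, adjusted p = 0.0391 by limma). The call did not hold when any 1 of 6 libraries was left out (control replicate 1, 2 or 3, siRNA A replicate 3, or siRNA B replicate 1 or 2), with adjusted p from 0.0554 to 0.127. by limma It was also lost with library totals alone (adjusted p = 0.175 by limma) and with the GC correction (adjusted p = 0.108 by limma). With siRNA A the log2 fold change was 0.13 (SE 0.18). It was -0.24 with library totals alone and -0.05 with the GC correction, so its direction with siRNA A depends on the setting. The GC content of the gene is 35.97%, the lowest of the 6. A long non-coding RNA gene overlaps its exons on the same strand, and 3.8% of its 50-base stretches also occur in that gene or in the pseudogene PRKAR1AP1.

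PRKAR1B encodes the type I beta regulatory subunit, known mainly from the nervous system. It spans 588834 to 767287 of chromosome 7 (minus strand) and was among the least abundant subunits. It stood at 13.3, 13.9 and 12.6 CPM in control, at 7.18, 7.90 and 6.96 CPM with siRNA A and at 11.9, 10.3 and 14.1 CPM with siRNA B. The siRNA A libraries were lower than all 6 others, and siRNA B overlapped with control. The siRNA A values rest on 151, 123 and 142 reads. The log2 fold change with siRNA A was -0.44 (SE 0.13). It was -0.77 with library totals alone and -0.16 with the GC correction, and at 62.44% the gene has the highest GC content of the 6. With siRNA B the log2 fold change was 0.07 (SE 0.13, adjusted p = 0.730 by limma), and its sign turned with library totals alone. Exons of DNAAF5 overlap the gene on the other strand. The use of strand in the counting is not given in the sources used here, so reads of the 2 genes may not have been separated.

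PRKAR2A encodes the type II alpha regulatory subunit, the widely expressed type II isoform. It spans 48782030 to 48885307 of chromosome 3 (minus strand), and exons of the antisense gene PRKAR2A-AS1 overlap it. It stood at 160, 155 and 139 CPM in control, at 128, 100.3 and 135 CPM with siRNA A and at 145, 142 and 146 CPM with siRNA B. The siRNA A libraries were below control in CPM but not after TMM scaling. The TMM-scaled means were 132 ± 7.57, 136 ± 16.0 and 146 ± 5.72 (SD, n = 3) in the same order. The log2 fold change was 0.04 (SE 0.11) with siRNA A and 0.15 (SE 0.11, adjusted p = 0.303 by limma) with siRNA B. Both were negative with library totals alone, at -0.33 and -0.06.

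PRKAR2B encodes the type II beta regulatory subunit, best known from brain and adipose tissue. It spans 106685150 to 106802256 of chromosome 7 (plus strand), with no exon shared with another gene. It stood at 22.1, 29.7 and 23.5 CPM in control, at 15.8, 17.9 and 20.1 CPM with siRNA A and at 19.2, 18.0 and 14.4 CPM with siRNA B. All 6 siRNA libraries were below all control libraries in CPM, and after TMM scaling those of siRNA B still were. The log2 fold change with siRNA B was -0.32 (SE 0.14) and missed the threshold (adjusted p = 0.0986 by limma). It passed with library totals alone, at -0.52 (adjusted p = 0.0173 by limma), and with the GC correction, at -0.44 (adjusted p = 0.0250 by limma). With siRNA A the log2 fold change was -0.11 (SE 0.14), and -0.46 with library totals alone.

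Between the 2 siRNAs the subunits other than PRKACA lay closer together. The log2 difference of siRNA A from siRNA B was -0.10 (SE 0.11) for PRKACB, -0.40 (SE 0.18) for PRKAR1A, -0.50 (SE 0.13) for PRKAR1B, -0.11 (SE 0.11) for PRKAR2A and 0.21 (SE 0.14) for PRKAR2B. Between the siRNAs 37.1% of all tested genes passed an adjusted p of 0.05 in limma's fit. This comparison also holds the siRNA A libraries, so no count and no p is given for the subunits in it.

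**Figure D2:**
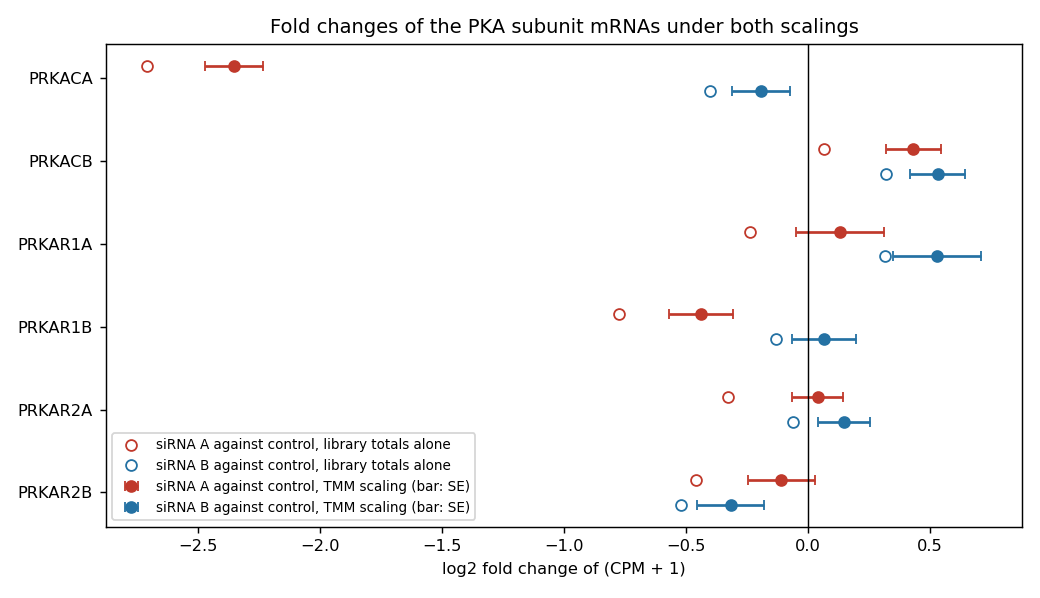
Log2 fold change of CPM + 1 (horizontal axis) for the 6 PKA subunits (vertical axis), siRNA A against control in red and siRNA B against control in blue. Filled points with bars are TMM-scaled values with their SE and open points are values with library totals alone. PRKACA with siRNA A lies at -2.35 and -2.71, apart from all other points under both scalings, while PRKAR1A with siRNA A lies on either side of 0 (0.13 and -0.24).

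Levels of different genes were compared per kilobase (kb) of exon, over the union of each gene's exons. In control the order was PRKACB at 27.7 ± 1.69 CPM per kb, PRKAR1A at 22.9 ± 2.71, PRKAR2A at 17.4 ± 1.26, PRKACA at 13.3 ± 1.44, PRKAR1B at 2.66 ± 0.125 and PRKAR2B at 1.997 ± 0.321 (SD, n = 3). No neighbours in this order overlapped in control. The same order held with siRNA A, where PRKACA was at 1.92 ± 0.257 CPM per kb, next to PRKAR1B at 1.47 ± 0.0990 and PRKAR2B at 1.42 ± 0.169, the last 2 overlapping. With siRNA B the order was again the same, and PRKACB (34.9 ± 5.94 CPM per kb) and PRKAR1A (29.2 ± 7.73) overlapped. The order depends on the length used. Per kb of the longest transcript, PRKACA at 24.4 ± 2.64 ranked above PRKAR2A at 23.3 ± 1.69 in control, and these overlapped.

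Ratios within a library do not depend on the scaling between libraries, so the make-up of the family was followed as shares of CPM per kb. The share of PRKACA in the sum of both catalytic subunits was 30.9%, 32.9% and 33.2% in control. It was 7.45%, 6.12% and 5.15% with siRNA A and 19.2%, 25.3% and 22.9% with siRNA B. Both siRNA groups were below control without overlap, siRNA A by far the most, and the means were 32.4 ± 1.26%, 6.24 ± 1.15% and 22.5 ± 3.06% (SD, n = 3). For siRNA B the exact two-sided permutation test gave p = 0.1, the smallest that 3 against 3 libraries allow, so this test cannot reach 0.05. For siRNA A the share contains the value that chose the family and no test is given. The shares can still depend on GC content, which is 54.53% in PRKACA and 37.87% in PRKACB. The GC correction moved the siRNA B log2 fold change from -0.19 to -0.09 for PRKACA and from 0.53 to 0.41 for PRKACB. No GC-corrected share is given.

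The share of type I among the regulatory subunits was 53.1%, 58.4% and 59.0% in control, 53.9%, 62.6% and 56.6% with siRNA A and 64.7%, 68.1% and 56.9% with siRNA B. These groups overlapped (siRNA B against control, exact permutation p = 0.3). The summed catalytic level divided by the summed regulatory level averaged 0.911 ± 0.0334 in control, 0.854 ± 0.0352 in siRNA A and 0.915 ± 0.148 in siRNA B libraries (SD, n = 3). The groups overlapped here too (siRNA B against control, exact permutation p = 1). For siRNA A this depends on the gene length used: per kb of the longest transcript the means were 0.908 in control and 0.813 with siRNA A, with no length correction 0.5999 and 0.545, and in both cases all siRNA A libraries lay below all control libraries. PRKACB was the larger part of the catalytic sum in every library. These ratios are of mRNA and say nothing of the amounts of protein.

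**Figure D3:**
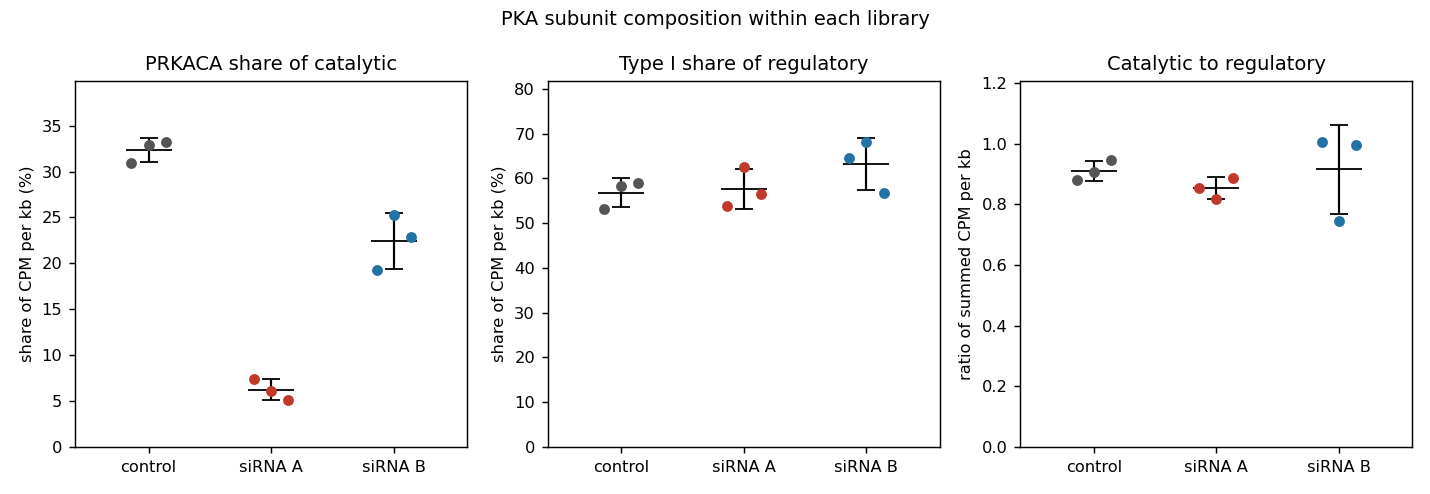
Make-up of the PKA family within each library, from CPM per kb of exon. The left panel shows the share of PRKACA in both catalytic subunits (%), the middle panel the share of type I among the regulatory subunits (%) and the right panel the ratio of summed catalytic to summed regulatory level. Points are libraries, lines and bars the mean and SD of 3. The PRKACA share runs from 30.9% to 33.2% in control and from 5.15% to 7.45% with siRNA A, while the other 2 measures overlap between groups at this gene length.

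The 5 genes outside the family whose TMM-scaled profile over the 9 libraries was most like that of PRKACA were NRGN, MYBL1, ELFN2, MAP4K4 and TMEM54. Likeness was the root-mean-square difference of centred log2 values, which was 0.255, 0.296, 0.311, 0.315 and 0.315 in that order. NRGN, which encodes the calmodulin-binding protein neurogranin, stood at 21.6 to 25.9 CPM in control, at 4.02 to 5.23 CPM with siRNA A and at 19.6 to 21.3 CPM with siRNA B. MAP4K4, a serine/threonine kinase, stood at 167 to 194 CPM, 34.2 to 41.5 CPM and 118 to 129 CPM in the same order. TMEM54, a membrane protein, had the widest distance of the 5, with 35.7 to 44.8 CPM in control, 3.43 to 4.11 CPM with siRNA A and 31.3 to 38.2 CPM with siRNA B. These genes were picked for their likeness on the same 9 libraries, so their levels are a description.

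**Figure D4:**
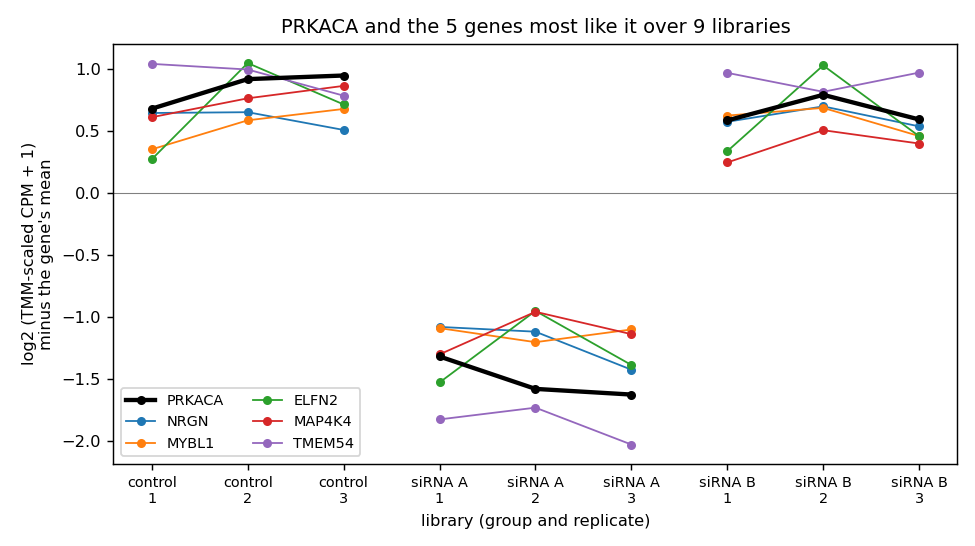
TMM-scaled log2 level minus the gene's own mean (vertical axis, log2) in each of the 9 libraries (horizontal axis) for PRKACA, in black, and the 5 genes most like it. All 6 lines are below 0 in the siRNA A libraries and above 0 in the control and siRNA B libraries, and TMEM54 goes lowest.

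Around PKA, 92 genes of the cAMP pathway were listed by role, of which 68 had a row and 61 were tested. With siRNA A, 19 of the 61 were higher and 15 lower at a limma adjusted p under 0.05, 55.7% in all, beside 51.4% of all tested genes. With siRNA B, 18 were higher and 9 lower, 44.3% in all, beside 34%. With library totals alone the split with siRNA A turned to 11 higher and 27 lower, and that with siRNA B to 12 higher and 16 lower. In the account of each list at most 4 genes are named, those called with the largest changes. Further genes are named for a promoter motif, and SIK1 as the CREB target that was lower. FOSB and PER1 are named as CREB targets called with siRNA A only, and AKAP1, AKAP11 and GSKIP as the anchoring protein genes that were lower.

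**Figure D5:**
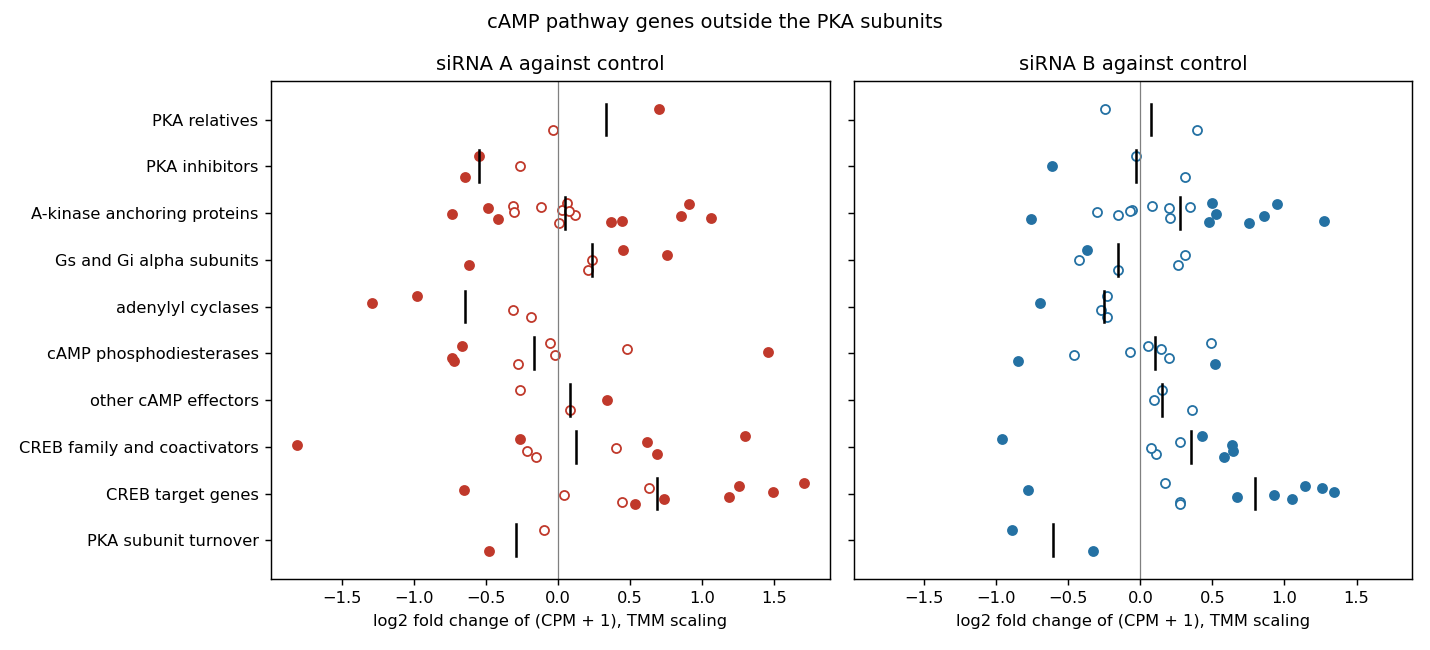
Log2 fold change of CPM + 1 after TMM scaling (horizontal axes) for 61 cAMP pathway genes, by list (vertical axis), with siRNA A on the left and siRNA B on the right. Filled points passed a limma adjusted p of 0.05, open points did not, and black bars are list medians. The median of the CREB target genes lies at 0.69 with siRNA A and at 0.80 with siRNA B, and that of the adenylyl cyclases at -0.65 and -0.26.

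Upstream of PKA, the adenylyl cyclases, which make cAMP, had 4 genes tested, of which 2 were lower with siRNA A, 1 with siRNA B and none higher. That is 50% and 25%, beside 51.4% and 34% of all tested genes. ADCY9 stood at 17.2, 25.1 and 22.0 CPM in control, at 6.61, 5.72 and 6.22 CPM with siRNA A and at 10.0, 11.8 and 10.9 CPM with siRNA B. The groups did not overlap, with siRNA B between the other two. ADCY9 fell with siRNA A (log2 fold change -1.29, SE 0.14, adjusted p = 3.43e-05 by limma) and with siRNA B (-0.70, SE 0.14, adjusted p = 0.0032 by limma). ADCY6 fell with siRNA A (-0.98, SE 0.15, adjusted p = 0.000318 by limma) and stood at -0.28 with siRNA B (adjusted p = 0.188 by limma). With library totals alone all 4 cyclases were called lower with each siRNA. On that scale the median of all tested genes was itself -0.34 with siRNA A and -0.18 with siRNA B.

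Of the 5 alpha subunits of the G proteins Gs and Gi, which switch the cyclases on and off, 2 were higher and 1 lower with siRNA A, and 1 was lower with siRNA B. That is 60% and 20%, beside 51.4% and 34% of all tested genes. GNAS, which encodes the stimulatory alpha subunit, rose from 668 ± 43.2 to 1131 ± 122 TMM-scaled CPM with siRNA A (log2 fold change 0.76, SE 0.12, adjusted p = 0.000286 by limma). It stood at 0.26 with siRNA B (SE 0.12, adjusted p = 0.102 by limma). Its olfactory relative GNAL fell with siRNA A (-0.62, SE 0.18, adjusted p = 0.0119 by limma). GNAL stood at -0.43 with siRNA B (SE 0.18, adjusted p = 0.0822 by limma), with all libraries below control. Of the inhibitory subunits, GNAI1 rose with siRNA A (0.45, SE 0.10, adjusted p = 0.00304 by limma), a call lost with library totals alone (adjusted p = 0.535 by limma). GNAI3 fell with siRNA B (-0.37, SE 0.09, adjusted p = 0.00927 by limma) and differed between the siRNAs by 0.61 (SE 0.09, adjusted p = 0.000489 by limma).

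The phosphodiesterases, which break down cAMP, had 8 genes tested, with 1 higher and 3 lower with siRNA A and 1 of each with siRNA B. That is 50% and 25%, beside 51.4% and 34% of all tested genes. PDE4B stood at 105, 143 and 125 CPM in control and at 115, 150 and 107 CPM with siRNA B. With siRNA A it stood at 203, 368 and 251 CPM, above all other libraries. PDE4B rose with siRNA A (log2 fold change 1.46, SE 0.22, adjusted p = 0.000223 by limma), and the difference between the siRNAs was 1.26 (SE 0.22, adjusted p = 0.00105 by limma). Its paralog PDE4A fell with siRNA A (-0.74, SE 0.11, adjusted p = 0.00024 by limma). PDE2A, with 0.428 to 2.64 CPM a gene of low level, stood at 1.27, 2.64 and 2.31 CPM in control. All siRNA libraries were at 0.428 to 0.695 CPM, on 7 to 15 reads. PDE2A passed the filter on low values only through the control libraries, the group where it was higher. Its log2 fold changes, -0.72 (SE 0.17) with siRNA A and -0.85 (SE 0.17) with siRNA B, are therefore given without a test. It is among the genes counted lower with each siRNA. PDE3B fell with siRNA A (-0.67, SE 0.21, adjusted p = 0.0206 by limma), a call that ended when control replicate 2 or 3 or siRNA A replicate 2 was left out. It stood at -0.46 with siRNA B (SE 0.21, adjusted p = 0.112 by limma).

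The PKA inhibitor peptides bind free catalytic subunits. Of the 3 genes tested, 2 were lower with siRNA A and 1 with siRNA B. That is 66.7% and 33.3%, beside 51.4% and 34% of all tested genes. PKIA stood at 4.17, 4.76 and 4.87 CPM in control, at 2.42, 1.48 and 2.06 CPM with siRNA A and at 5.23, 5.75 and 4.51 CPM with siRNA B. PKIA fell with siRNA A (log2 fold change -0.64, SE 0.15, adjusted p = 0.00415 by limma), and the siRNAs differed by -0.95 (SE 0.15, adjusted p = 0.000651 by limma). PKIB fell with siRNA A (-0.55, SE 0.14, adjusted p = 0.00665 by limma) and with siRNA B (-0.62, SE 0.14, adjusted p = 0.00573 by limma). Of the 2 related kinases tested, PRKG1, the cGMP-dependent kinase I, was close to the filter on low values. It stood at 0.460 ± 0.176 TMM-scaled CPM in control and at 1.36 ± 0.134 with siRNA A. Its control libraries held 6 to 15 reads and its siRNA A libraries 16 to 27. No control library reached the 1 CPM of the filter, while every siRNA A library did. PRKG1 thus passed the filter through the group where it was higher, so its log2 fold change (0.70, SE 0.17) is given without a test. It is among the genes counted higher with siRNA A.

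A-kinase anchoring proteins place PKA at sites in the cell. Of 16 tested, 5 were higher and 3 lower with siRNA A, and 7 were higher and 1 lower with siRNA B. That is 50% with each siRNA, beside 51.4% and 34% of all tested genes. With library totals alone 3 were higher and 6 lower with siRNA A, so the balance turned, and 4 were higher and 1 lower with siRNA B. AKAP12 stood at 4940, 3775 and 3920 CPM in control, at 7036, 5965 and 7368 CPM with siRNA A and at 5149, 7853 and 8397 CPM with siRNA B. All siRNA libraries were above all control libraries. AKAP12 rose with siRNA A (log2 fold change 1.06, SE 0.21, adjusted p = 0.00161 by limma) and with siRNA B (0.95, SE 0.21, adjusted p = 0.00546 by limma). EZR, which encodes ezrin, rose with siRNA A (0.85, SE 0.14, adjusted p = 0.00038 by limma) and with siRNA B (0.86, SE 0.14, adjusted p = 0.000711 by limma), as did the Golgi protein gene ACBD3 (0.91, SE 0.12, adjusted p = 9.68e-05 by limma, and 0.76, SE 0.12, adjusted p = 0.000638 by limma). WASF1, an actin regulator, rose most with siRNA B (1.27, SE 0.15, adjusted p = 0.00011 by limma). Its smaller rise with siRNA A (0.45, SE 0.15, adjusted p = 0.0282 by limma) did not pass with library totals alone (adjusted p = 0.627 by limma), nor when control replicate 1 or siRNA A replicate 2 or 3 was left out. AKAP1 fell with siRNA A (-0.41, SE 0.16, adjusted p = 0.0424 by limma) and with siRNA B (-0.76, SE 0.16, adjusted p = 0.0031 by limma). AKAP11 (-0.74, SE 0.26, adjusted p = 0.0297 by limma) and GSKIP (-0.49, SE 0.10, adjusted p = 0.00145 by limma) fell with siRNA A.

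Among other cAMP effectors, 1 of 3 was called, with siRNA A, where 51.4% of all tested genes were. POPDC3, a cAMP-binding membrane protein, was higher with siRNA A after TMM scaling (0.34, SE 0.12, adjusted p = 0.0317 by limma), but at -0.0028 with library totals alone. Its call also ended with the GC correction (adjusted p = 0.0626 by limma) and when control replicate 1, 2 or 3 or siRNA A replicate 1 or 3 was left out (adjusted p from 0.0550 to 0.122 by limma). Both tested genes for the turnover of PKA subunits were lower with siRNA B, where 18.3% of all tested genes were. With siRNA A 1 was lower, where 27.6% of all tested genes were. STUB1, a ubiquitin ligase, stood at 85.6, 83.5 and 78.8 CPM in control, at 51.3, 43.9 and 42.1 CPM with siRNA A and at 40.9, 35.0 and 38.0 CPM with siRNA B. The groups did not overlap. STUB1 fell with siRNA B (-0.89, SE 0.10, adjusted p = 8.24e-05 by limma) and with siRNA A (-0.48, SE 0.10, adjusted p = 0.00221 by limma), the latter not past the threshold with the GC correction (adjusted p = 0.0784 by limma). PJA2, the ubiquitin ligase that targets PKA regulatory subunits, fell with siRNA B (-0.33, SE 0.11, adjusted p = 0.0397 by limma). Leaving out control replicate 2 or 3, siRNA A replicate 3 or siRNA B replicate 2 or 3 ended that call.

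Downstream, CREB and its relatives carry the PKA signal to the genome, helped by coactivators. Of 8 tested, 3 were higher and 2 lower with siRNA A, and 4 were higher and 1 lower with siRNA B. That is 62.5% with each siRNA, beside 51.4% and 34% of all tested genes. CRTC1, a CREB coactivator held in the cytosol until cAMP rises, stood at 10.5, 12.4 and 11.9 CPM in control, at 2.42, 1.54 and 1.86 CPM with siRNA A and at 4.72, 3.86 and 5.54 CPM with siRNA B. The groups did not overlap. CRTC1 fell with siRNA A (log2 fold change -1.81, SE 0.15, adjusted p = 5.98e-06 by limma) and with siRNA B (-0.96, SE 0.15, adjusted p = 0.000652 by limma). ATF1, a close relative of CREB, stood at 18.2 to 21.6 CPM in control, 39.6 to 41.4 CPM with siRNA A and 22.4 to 29.4 CPM with siRNA B. It rose with siRNA A (1.30, SE 0.13, adjusted p = 1.36e-05 by limma) and with siRNA B (0.58, SE 0.13, adjusted p = 0.00431 by limma). The related coactivator CRTC2 rose with siRNA B (0.64, SE 0.16, adjusted p = 0.0105 by limma). With siRNA A it stood at 0.40 (SE 0.16, adjusted p = 0.0558 by limma), and passed with the GC correction at 0.65 (adjusted p = 0.00729 by limma). The histone acetyltransferase EP300 rose with siRNA B (0.64, SE 0.14, adjusted p = 0.00428 by limma) and siRNA A (0.68, SE 0.14, adjusted p = 0.00152 by limma). The EP300 call with siRNA A ended with library totals alone, at 0.32 (adjusted p = 0.0553 by limma). With library totals alone 1 of the 8 was higher and 4 were lower with siRNA A.

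Of 10 tested genes known as CREB targets, 6 were higher and 1 lower with each siRNA. Of all tested genes, 23.9% were higher and 27.6% lower with siRNA A, and 15.6% and 18.3% with siRNA B. The 6 were not all the same genes. FOSB and PER1 were called higher with siRNA A only, and NR4A3 and VGF with siRNA B only. The lower gene was SIK1 in both cases. It stood at -0.65 with siRNA A (SE 0.17, adjusted p = 0.00635 by limma) and at -0.78 with siRNA B (SE 0.17, adjusted p = 0.00386 by limma). The median log2 fold change of the list was 0.69 with siRNA A and 0.80 with siRNA B, where all tested genes had medians of -0.02 and 0.0043. With library totals alone 4 were higher and 1 lower with siRNA A and 5 were higher and 1 lower with siRNA B. NR4A1, an immediate early nuclear receptor, stood at 30.6, 19.1 and 26.9 CPM in control, at 49.2, 76.1 and 47.8 CPM with siRNA A and at 62.3, 45.5 and 53.5 CPM with siRNA B. All siRNA libraries were above all control libraries. NR4A1 rose with siRNA A (1.50, SE 0.22, adjusted p = 0.000188 by limma) and with siRNA B (1.26, SE 0.22, adjusted p = 0.00107 by limma). JUNB, an AP-1 subunit, rose with siRNA A (1.71, SE 0.24, adjusted p = 0.000142 by limma) and with siRNA B (0.92, SE 0.24, adjusted p = 0.011 by limma). FOS, its partner in AP-1, rose with siRNA A (1.26, SE 0.20, adjusted p = 0.000363 by limma) and passed with siRNA B (0.67, SE 0.20, adjusted p = 0.024 by limma), a call that library totals alone ended, as did leaving out control replicate 2 or 3 or the first or second siRNA B library. NR4A3, a relative of NR4A1, rose with siRNA B (1.35, SE 0.26, adjusted p = 0.00211 by limma) and stood at 0.64 with siRNA A (SE 0.26, adjusted p = 0.0570 by limma). These genes also answer to signals other than cAMP, which were not measured here.

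CREB binds the palindrome TGACGTCA, the cAMP response element. This motif was looked for, in windows of 300 bases that end just after each gene start, in RefSeq promoters of GRCh38.p14, and a palindrome reads the same on both strands. It was in 614 of 27305 promoters (2.25%), in 1 of the 6 PKA subunits and in 4 of 12 listed CREB targets with a promoter in the table (DUSP1, CGA, SST and VGF). It was also in 2 of 14 listed phosphodiesterases (PDE4A and PDE7B) and in 1 of 7 genes of the CREB family and coactivators (CREM). Of these, PDE4A fell with siRNA A, CREM was not called with either siRNA and PDE7B had no row. The subunit was PRKAR1A, and its site, which lies at the gene start, is shown with that of VGF. Of the 4 targets only DUSP1 and VGF were tested, and VGF, which passed with siRNA B, was chosen after its values were seen. Capitals mark the motif:
PRKAR1A: cgaggcgcatTGACGTCAgtagccgaac
VGF: gaatgaacatTGACGTCAatggggcggg
The first is at chr17:68512371-68512398 on the plus strand and the second at chr7:101165631-101165658 on the minus strand, both on GRCh38.p14. VGF, a neuropeptide precursor, rose with siRNA B (log2 fold change 1.06, SE 0.16, adjusted p = 0.000488 by limma) and stood at 0.04 with siRNA A (SE 0.16, adjusted p = 0.831 by limma). DUSP1, a phosphatase of MAP kinases, stood at 0.28 with siRNA B (SE 0.18, adjusted p = 0.264 by limma) and at 0.45 with siRNA A (SE 0.18, adjusted p = 0.0579 by limma). PRKACA and the other 4 subunits hold no full palindrome in this window, which says nothing on other elements or on the binding of CREB. The half-site, the first 5 bases of the motif on either strand, was more common. It was in 7761 of 27305 promoters (28.42%), in 5 of the 6 subunits and in 10 of 12 listed CREB targets. It was also in 11 of 22 anchoring protein genes and in none of 2 PKA relatives. Whether CREB binds these sites was not tested.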

How the data were processed

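The authors deposited 1 table in CPM, gene reads scaled to a common total. RNA was selected with oligo-dT and single-end reads had 50 bases. The submitters' processing notes name TopHat2, HTSeq and GRCh37 without their roles, and strand use is not given in the sources used here. Values were whole multiples of 1 read in 100% of cases (tolerance 0.01 reads), which gave the read counts. Reads carried no molecular identifiers, and 3 reads correspond to 0.129 to 0.193 CPM, so depth covers counting error only. Of the row identifiers, 14871 of 15354 were matched to a symbol in the reference gene table, and coordinates are those of GENCODE on GRCh37.

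Genes that reached 1 CPM in 3 or more libraries were tested with limma 3.58.1 (R 4.3.3) on log2(TMM-scaled CPM + 1), with a variance trend and Benjamini-Hochberg adjustment over all 13893 genes, from 1 fit of all 9 libraries. A fold change on this scale understates that of low genes. The test had been planned for either unit. edgeR 4.0.16 on the recovered reads was an alternative and called 7160 genes with siRNA A and 4780 with siRNA B, where limma called 7145 and 4719. Both tools were tested on simulated data first. Libraries of a group differed beyond sampling noise (chi-square per degree of freedom 13.0 or more), so all were kept. Same-numbered control and siRNA A libraries deviated together (r = 0.65, 0.41 and 0.13), those of control and siRNA B did so for numbers 1 and 2 but not 3 (0.17, 0.44 and -0.39), those of siRNA A and siRNA B gave 0.20, 0.44 and 0.019, and no source states what a number shares. Sequence scans and plots used Python 3.11.15, pandas 2.3.3 and matplotlib 3.10.9.

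The subunits, the pathway lists and the tests were chosen with earlier results of these data known. Named were all 6 subunits, at most 4 genes per list that passed against control with either siRNA, by largest absolute change, and the 5 genes most like PRKACA. Outside this rule, listed genes with the promoter motif, SIK1, FOSB, PER1, AKAP1, AKAP11 and GSKIP were named. Alternatives were library totals, no filter on low values, a pseudocount of 0.1, edgeR, a GC content correction, a replicate block, another gene length and each library left out.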

Additional observations from a re-analysis of the deposited data

How the results depend on the processing

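With siRNA A, library totals alone moved the log2 fold changes to -2.71 for PRKACA, 0.067 for PRKACB, -0.24 for PRKAR1A, -0.77 for PRKAR1B, -0.33 for PRKAR2A and -0.46 for PRKAR2B, and the GC correction moved PRKACB to 0.29, PRKAR1A to -0.046 and PRKAR1B to -0.16. With siRNA B, library totals alone brought PRKACA (-0.40) and PRKAR2B (-0.52) past the threshold, took PRKACB (0.32) and PRKAR1A (0.32) below it, and turned PRKAR1B to -0.13 and PRKAR2A to -0.062. The GC correction took PRKAR1A (0.38) below the threshold and brought PRKAR2B (-0.44) past it. Leaving out 1 library gave 0.33 to 0.75 for PRKAR1A and -0.048 to 0.14 for PRKAR1B with siRNA B, the negative value without siRNA B replicate 3. PRKACA with siRNA A stayed between -2.45 and -2.30 over those fits. Pathway genes with library totals alone were 11 higher and 27 lower with siRNA A and 12 higher and 16 lower with siRNA B, the call of EP300 with siRNA A was lost (0.32), and POPDC3 with siRNA A stood at -0.0028. Fold changes with library totals alone were lower than after TMM scaling because the TMM factors were higher in control than in the siRNA libraries. Which scaling is closer to the true levels was not tested, and for the other settings the cause was not tested. Per kb of the longest transcript the PRKACA share with siRNA A was 29.2 percentage points below control (-29.2) and the catalytic to regulatory ratio differed by -0.0954, with groups that no longer overlapped. With a replicate block PRKACB rose with siRNA B at adjusted p = 0.00249 by limma and PRKAR1A at 0.0122, no call of a subunit changed with siRNA B, and of the named pathway genes CRTC2 (adjusted p = 0.0146 by limma) and NR4A3 (0.0379) passed with siRNA A and GNAL (0.0350) with siRNA B. Without the filter, with the pseudocount of 0.1 and with edgeR, no call of a subunit with siRNA B changed. PRKAR1B had the fewest reads of the subunits, 123 to 329 a library.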
